A study of Mus musculus with 1073 samples.

Results

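The 6 genes described here are *Stab1*, *Stab2*, *Lyve1*, *Mrc1*, *Fcgr2b* and *Cd36*, which encode cell-surface receptors that take up material from the blood or from dying cells. They were chosen by name from what is known of scavenging endothelium and macrophages, with earlier results of these data also known. All 6 are among the 15967 genes of the filtered expression tables. Their RNA was followed by single-cell RNA-seq through 13 sorted populations of the mouse yolk sac, with most attention to the endothelial cells (Endo) of E8.5 and E10.5 and to the macrophages (Mac) of E10.5. Cells were captured singly on the Fluidigm C1 system, 86.3% of 1073 captured cells passed the authors' filter, and levels are given as the mean over cells of CPM, the authors' scaled counts after dividing each cell by a size factor. Stages follow the sample labels: the deposited column names give E7.5 for the cells labelled E7.25, and E8.5 for those labelled E8.25. At E7.25 and E7.75 Flk1-GFP+ cells were sorted from Flk1-GFP/+ embryos, in which GFP marks cells that express *Kdr*, and all later cells came from C57BL/6 embryos. Haematopoietic progenitors (HPC, labelled EMP by the submitters) were TER119- CDH5+ CD41+ at E8.25 and E8.5, and TER119- CDH5- CD45+ CD41low at E9.5 and E10.5. Primitive erythroid cells (EryP) were CD41- CDH5- TER119+, and at E10.5 also CD45-. Megakaryocytes (Mk) were TER119- CDH5- CD41+ at E8.5 and TER119- CDH5- CD45- CD41high at E10.5. Macrophages were TER119- CDH5- CD41- CD45+, and endothelial cells were TER119- CD41- CDH5+, with CD45- added at E10.5. No embryo or pool was named for a cell, so each population is 1 sample, no test between populations was possible, and the ranges below are over cells of 1 sample.

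Scavenger receptors bind a wide choice of ligands, such as modified lipoproteins, hyaluronan, glycoproteins, immune complexes and apoptotic cells, and carry them into endosomes and lysosomes. In adult tissue the endothelium of the liver and spleen sinusoids is specialised for this clearance and carries stabilins, LYVE1, the mannose receptor and an inhibitory Fc receptor, several of which are shared with tissue macrophages. In the embryo, yolk sac vessels are the first blood vessels, and yolk sac macrophages are among the first macrophages.

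The labels were checked against marker genes first. *Cdh5* and *Ptprc* (CD45) among these markers encode proteins used in the sorts, so they are not independent of the labels. Both endothelial populations held 7 of 7 endothelial markers (*Kdr*, *Plvap*, *Cdh5*, *Ramp2*, *Pecam1*, *Aplnr* and *Tek*) in at least 50% of cells, with summed levels from 336 to 7161 CPM per cell at E8.5 and from 125.4 to 26031 CPM at E10.5. Of 8 macrophage markers (*Csf1r*, *Cx3cr1*, *C1qb*, *C1qc*, *Ptprc*, *Adgre1*, *Aif1* and *Cd14*), 8 had no count in any E10.5 Endo cell and 7 had none in any E8.5 Endo cell, where the highest summed level was 1.85 CPM. The macrophages held all 8 in at least 50% of cells, with sums from 432 to 15392 CPM, and their summed endothelial markers had a median of 0 and a maximum of 409 CPM. The name "sinusoid-like" was borne out only in part. Of 10 sinusoidal genes outside the 6 receptors, 6 were present in at least 50% of E8.5 Endo cells and 5 in at least 50% of E10.5 Endo cells, among them *Oit3* at 568 and 694 CPM, *Gpr182* at 136.5 and 347 CPM and *Flt4* at 150 and 314 CPM. *Gata4*, a transcription factor of liver sinusoids, was detected in 7.59% and 3.28% of cells, *Wnt2* in 1.27% and 0%, and *Clec4g* in 6.33% and 0%. Of 5 continuous capillary genes, *Cd34*, *Emcn* and *Cldn5* were present in at least 85.2% of cells of each endothelial population, while *Car4* was found in 16.5% and 1.64% and *Cd300lg* in 5.06% and 11.5%. Of the lymphatic genes, *Nrp2* was found in 98.7% and 95.1% of Endo cells, *Pdpn* in 10.1% and 6.56% and *Prox1* in 5.06% and 4.92%. These cells are therefore called Endo below, with no vessel type. Cells held 483830 to 5943204 counts in total (median 1887348). Every population had its own sequencing lane or lanes except E10.5 Mac and E10.5 EryP, which shared lane 5. The E8.5 and E10.5 populations were read on different flow cells, so stage and flow cell cannot be told apart.

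The genes lie apart in the genome, on 6 chromosomes of GRCm38: *Stab1* at chr14:31139013-31168641 (minus strand), *Stab2* at chr10:86841198-87008025 (minus), *Lyve1* at chr7:110850607-110863239 (minus), *Mrc1* at chr2:14229392-14332057 (plus), *Fcgr2b* at chr1:170958617-170976547 (minus) and *Cd36* at chr5:17781690-17888801 (minus). *Stab1* shares 1.09% of its 10288 exon bases with the opposite-strand gene *Nt5dc2*, *Stab2* shares 1.61% of 8757 with annotated antisense genes and pseudogenes, and *Fcgr2b* shares 2.68% of 5790 with an antisense gene. The libraries do not mark strand, so reads in these stretches cannot be given to 1 gene. *Fcgr2b* is also close in sequence to other Fc gamma receptor genes. The promoters of *Stab2*, *Stab1* and *Mrc1* are shown because the means of *Stab1* and *Mrc1* were close in pattern over the 13 populations, both high in macrophages, whereas *Stab2* was near 0 there. Each run covers 250 bases before to 50 bases after the RefSeq transcript start (GRCm38.p6), written 5′ to 3′ on the gene's own strand. Capitals mark every match, on either strand, to an ETS motif of the PU.1 type spelled GAGGAA and to a MAF half-site spelled TGCTGA. The motif of GATA factors, spelled AGATAA, was searched in the same way, and the spellings do not contain one another.
Stab2, chr10:87007893-87008192, minus strand: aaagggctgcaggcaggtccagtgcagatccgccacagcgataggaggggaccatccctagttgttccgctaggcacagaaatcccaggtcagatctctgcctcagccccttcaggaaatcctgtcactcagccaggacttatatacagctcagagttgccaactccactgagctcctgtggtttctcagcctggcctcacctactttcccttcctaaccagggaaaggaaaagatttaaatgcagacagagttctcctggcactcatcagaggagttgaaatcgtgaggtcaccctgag
Stab1, chr14:31168592-31168891, minus strand: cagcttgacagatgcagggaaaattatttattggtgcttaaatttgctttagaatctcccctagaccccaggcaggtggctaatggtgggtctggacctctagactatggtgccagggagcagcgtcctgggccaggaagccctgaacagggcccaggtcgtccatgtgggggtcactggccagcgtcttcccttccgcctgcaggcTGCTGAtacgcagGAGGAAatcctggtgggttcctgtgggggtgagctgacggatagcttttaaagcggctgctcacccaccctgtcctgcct
Mrc1, chr2:14229164-14229463, plus strand: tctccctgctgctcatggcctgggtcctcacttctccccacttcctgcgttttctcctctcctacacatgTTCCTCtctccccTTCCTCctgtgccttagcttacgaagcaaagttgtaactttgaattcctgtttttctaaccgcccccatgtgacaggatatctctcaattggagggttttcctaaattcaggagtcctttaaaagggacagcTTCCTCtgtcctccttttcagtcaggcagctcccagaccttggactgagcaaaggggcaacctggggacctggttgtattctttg
The *Stab2* run held none of the 3 motifs, *Stab1* held 1 ETS and 1 MAF match, and *Mrc1* held 3 ETS matches. Of the 5 receptors with a promoter in the table, *Cd36* (1 MAF match) was the other with a match, *Fcgr2b* had none, and none of the 5 held the GATA motif. Over 27025 promoters of this length, 28.3% held the ETS motif, 19.1% the MAF half-site and 11.4% the GATA motif, so single matches of this kind are common.

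**Figure D1:**
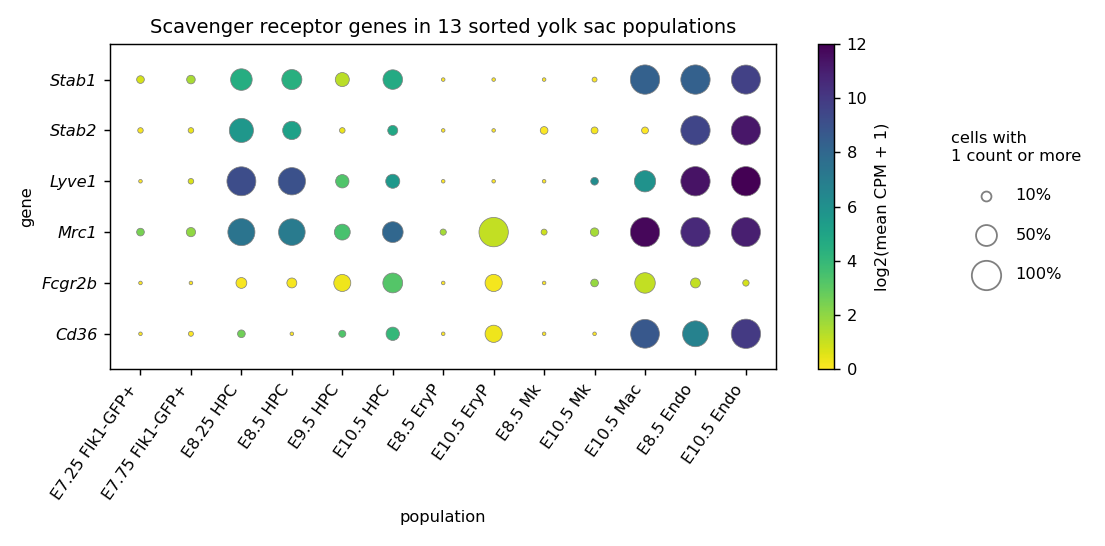
Level and detection of the 6 receptor genes (rows) in the 13 sorted populations (columns). Dot colour gives log2(mean CPM + 1), and dot area grows with the share of cells in which the gene was detected. *Stab1*, *Mrc1* and *Cd36* are high in E10.5 Mac and both Endo populations, *Stab2* in Endo, and *Lyve1* in Endo and the early HPC.

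*Stab2*, the stabilin that clears hyaluronan and other glycosaminoglycans, was the receptor that parted endothelium from macrophages. It was detected in 79 of 79 E8.5 Endo cells, which spanned 20 to 2589 CPM (median 664, mean 736), and in 61 of 61 E10.5 Endo cells, which spanned 1.64 to 17310 CPM (median 1949, mean 2469). In the macrophages 1 of 25 cells held a single *Stab2* count, at 0.511 CPM (4%, exact 95% interval 0.101 to 20.4). The lowest endothelial cell at either stage was above the highest macrophage, so the ranges did not overlap. At E10.5 that lowest Endo cell held only 2 counts, so the gap to the macrophages rests on few reads there. Of the E10.5 Endo cells, 60 of 61 held 10 counts or more. As a share of all counts pooled over cells, *Stab2* was 159723-fold higher in E10.5 Endo than in Mac (exact 95% interval 28667 to 6308727) and 57963-fold higher in E8.5 Endo (10403 to 2289454). These intervals treat every read as an independent draw and rest on 1 macrophage read. Reads are amplified copies, not counts of molecules, so the intervals do not cover amplification or the spread over cells. As ratios of mean CPM + 1 the folds were 2420 and 722. The next populations in order were the HPC of E8.25, E8.5 and E10.5 at 49.6, 34.7 and 28.2 CPM, whose interquartile ranges lay below that of E8.5 Endo and overlapped each other, and the other 8 populations were at 0.296 CPM or less.

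*Stab1*, the second stabilin, which takes up acetylated lipoproteins and directs lysosomal sorting in macrophages, was instead shared by the endothelium and the macrophages. It was detected in 25 of 25 macrophages, from 0.244 to 1964 CPM (median 60.7, mean 317), in 79 of 79 E8.5 Endo cells, from 1.87 to 873 CPM (median 258, mean 314), and in 60 of 61 E10.5 Endo cells, from 0 to 13485 CPM (median 487, mean 829). The means of Mac and E8.5 Endo were alike while the medians were not. The macrophages spread more widely: the quartiles of Mac were 22.9 and 627 CPM and those of E8.5 Endo 120 and 432 CPM. A single E10.5 Endo cell carried 26.7% of the population's sum, and the mean without it was 618 CPM. That cell's summed CPM were 2953059, and relative to its own total its *Stab1* level was 4566 CPM. The interquartile ranges of the 3 populations overlapped, and the next in order, E10.5 HPC at 25.5 CPM, lay below E8.5 Endo. *Stab1* was not found in E8.5 EryP or E8.5 Mk, where 0 of 66 and 0 of 37 cells allow shares of up to 4.55% and 8.11%.

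*Lyve1*, a hyaluronan receptor of lymphatic and some blood endothelia and of tissue macrophages, had the highest level per exon length of the 6 genes in both endothelial populations. Per kilobase of exon the E10.5 Endo levels were 1383 CPM for *Lyve1*, 319 for *Mrc1*, 282 for *Stab2*, 275 for *Cd36*, 80.6 for *Stab1* and 0.122 for *Fcgr2b*. Every E8.5 Endo cell held *Lyve1*, from 113.2 to 6269 CPM (median 2701), as did every E10.5 Endo cell, from 2.45 to 16045 CPM (median 3209). The macrophages were of another kind: 12 of 25 had no count, 7 had 1 to 9 counts and 6 had 10 or more, with a median of 0.241 CPM. Their mean of 60.1 CPM came for 88.2% from 1 cell at 1326 CPM and was 7.39 CPM without it, and 71 of 79 E8.5 Endo and 51 of 61 E10.5 Endo cells were above that cell. E8.25 and E8.5 HPC came next to the endothelium, at 590 and 525 CPM, with *Lyve1* in 71 of 73 and 77 of 89 cells. The E10.5 Mk mean of 73 CPM was again 1 cell, at 5328 CPM, or 1276 CPM relative to its own total, and without it the mean was 0.0212 CPM.

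*Mrc1*, the mannose receptor CD206 of macrophages and sinusoids, was found in all 25 macrophages, from 6.91 to 17131 CPM (median 2650, mean 3493). E8.5 Endo cells spanned 163 to 3976 CPM (median 1372, mean 1559, 79 of 79 cells) and E10.5 Endo cells 0 to 6285 CPM (median 1385, mean 2035, 60 of 61 cells). The macrophage mean was the highest of the 13, but the interquartile ranges of the 3 populations overlapped, and 21 of 61 E10.5 Endo cells were above the macrophage median. HPC held less *Mrc1*: 164 and 131.5 CPM in the E8.25 and E8.5 cells, 10.1 CPM at E9.5 and 265 CPM at E10.5. The 3 E10.5 EryP cells held 2 counts of *Mrc1* each, and 1 to 4 of the 8 macrophage markers at a largest count of 1. They shared lane 5 with the macrophages, and the part of the shared lane in these counts was not tested.

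*Cd36*, which takes up oxidised lipoproteins and long-chain fatty acids and binds thrombospondin, was the receptor that differed most between the endothelial stages. At E8.5 it was found in 61 of 79 Endo cells (77.2%, exact 95% interval 66.4 to 85.9), from 0 to 1493 CPM with a median of 14.8 and a mean of 101.3. At E10.5 it was found in 61 of 61, from 0.819 to 8475 CPM with a median of 368 and a mean of 987, and 54 of these 61 cells were above the E8.5 median. Macrophages spread widely, from 0 to 4528 CPM in 24 of 25 cells with *Cd36*, with quartiles of 1.45 and 234, a median of 25.4 and a mean of 428 that was 257 without the highest cell. Outside these 3 populations the highest mean was 15.1 CPM, in E10.5 HPC. No *Cd36* count was found in the 73 E10.5 Mk or 37 E8.5 Mk cells, although platelets are a known site of this protein, which allows shares of up to 4.11% and 8.11%.

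*Fcgr2b*, the inhibitory Fc gamma receptor of B cells, myeloid cells and adult liver sinusoids, was close to absent from the yolk sac endothelium. Its mean was 1.13 CPM in E8.5 Endo, where 8 of 79 cells held it and 1 cell made up 95.4% of the sum, and 0.705 CPM in E10.5 Endo, where 2 of 61 cells held it and 1 cell made up 98.5%. The macrophages held 1.14 CPM, with 12 of 25 cells at 1 count or more and 3 at 10 or more, and a highest cell of 10.9 CPM. The highest level was in E10.5 HPC, at 8.253 CPM in 39 of 87 cells (44.8%, exact 95% interval 34.1 to 55.9). In no population did it reach the mean of 10 CPM required for a ratio, so it was left out of the comparisons. The filter bears on this: in the 16 captured macrophages that it left out, 2 cells held *Fcgr2b*, both at 10 counts or more, and the mean relative to the cells' own totals was 92.1 CPM.

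**Figure D2:**
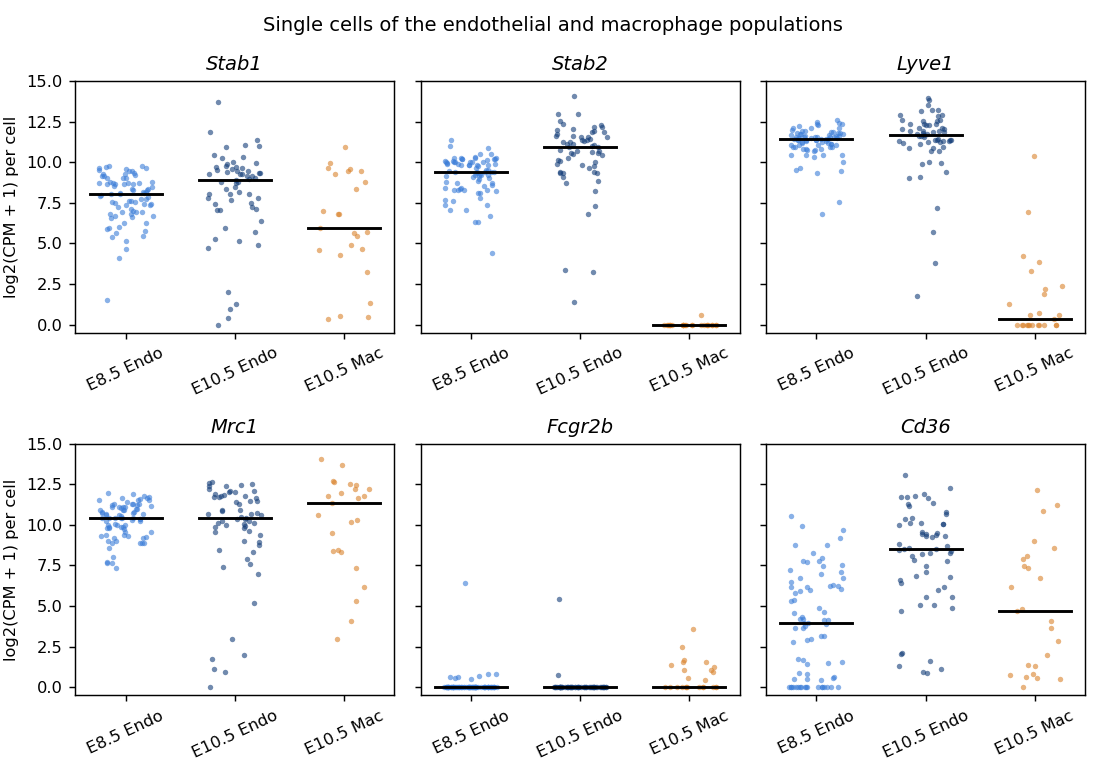
Single cells of E8.5 Endo (79), E10.5 Endo (61) and E10.5 Mac (25) for each receptor. Points are cells, the vertical axis is log2(CPM + 1), horizontal position within a population is random, and black lines are medians. *Stab2* does not overlap between Endo and Mac, whereas *Stab1*, *Mrc1* and *Cd36* do.

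The comparisons between populations were made as ratios of mean CPM + 1, and a gene was called where it differed by 4-fold or more (2 on the log2 scale), among genes that reached a mean of 10 CPM in either population. *Fcgr2b* fell below that minimum, so 5 of the 6 receptors were compared. E10.5 Endo and E10.5 Mac share a stage and a flow cell but were read in different lanes. Cell type and lane cannot be told apart here. Between these populations 2 of 5 receptors were called higher in Endo and 0 lower, where 21.1% of 10294 genes were called higher and 12.6% lower. The called receptors were *Stab2* (log2 ratio 11.24) and *Lyve1* (6.04). *Stab1* (1.38), *Cd36* (1.20) and *Mrc1* (-0.78) stayed within 4-fold. Over all captured cells, which were scaled by total counts over all genes, *Cd36* was at 2.19, past 4-fold. In the kept cells scaled by total counts it was 1.31. The median of the 5 ratios was 1.38, and that of all genes compared was 0.29. With cells divided by their total counts in place of the size factors, the median of the same genes was 0.17 and the same 2 receptors were called. Taken as the difference of mean log2(CPM + 1) over cells, *Cd36* was 3.07 higher in Endo and *Lyve1* 9.71, a measure in which single high cells weigh less.

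Between E8.5 Endo and E10.5 Mac, 2 of 5 receptors were called higher in Endo against 17.1% of 9936 genes, and 1 lower against 13.2%. *Stab2* (9.5) and *Lyve1* (5.49) were higher and *Cd36* (-2.07) lower. The *Cd36* call rests on its threshold and scaling. Its ratio was -1.88 when scaled by total counts and -1.61 without the highest cell of each population. Over all captured cells, also scaled by total counts, it was -1.20. *Stab1* was at -0.02, and its sign depended on the setting: scaled by total counts it was 0.06, and as a difference of mean log2 values 1.62. *Mrc1* was at -1.16, or 0.16 as a difference of mean log2 values. Cell type, stage and flow cell cannot be told apart here.

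Between the endothelial stages, 1 of 5 receptors was called higher at E10.5 against 8.67% of 9938 genes, and 0 lower against 4.33%. The called gene was *Cd36*, with a log2 ratio of 3.27. *Stab2* (1.74) and *Stab1* (1.40) were higher at E10.5 by less than 4-fold, and *Lyve1* (0.55) and *Mrc1* (0.38) by less than 2-fold. The *Stab1* difference was smaller over cells than over means: it was 0.35 as a difference of mean log2 values, and *Mrc1* was then -0.65. At E10.5, 57 of 61 Endo cells held 10 counts or more of *Stab1* and 57 of *Mrc1*, against 78 and 79 of 79 at E8.5. The endothelial markers were themselves higher at E10.5, with a median ratio of 1.03 over 7 genes and 1 called, and the part of this in the receptor differences was not tested.

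The wider gene lists place the receptors among their relatives. Of 15 other scavenger receptors, 7 could be compared between E10.5 Endo and Mac, 2 of them were higher in Endo and 2 lower (21.1% and 12.6% of all genes compared), and their median log2 ratio was 0.00. *Scarf1*, an endothelial receptor for acetylated lipoprotein, was at 107.4 CPM in E10.5 Endo with no count in the 25 macrophages, and *Colec12*, a collectin-type scavenger receptor, was at 262 against 13.7 CPM (4.17). The other way, *Cd68*, a lysosomal protein of macrophages, was at 221 CPM in Mac and 0.148 in Endo (-7.59), and the lipoprotein and engulfment receptor *Lrp1* at 47.2 and 0.577 CPM (-4.93). The macrophage scavenger receptor *Msr1* was at 21.2 CPM in Mac and 4.93 in Endo, within 4-fold on the scale of CPM + 1 (-1.91). It was detected in 72% of Mac cells but in only 3.28% of E10.5 Endo cells, so few cells carry that Endo mean. In E8.5 Endo *Msr1* was at 0.0269 CPM (-4.43 against Mac). At E8.5 the corresponding counts were 2 higher and 3 lower (17.1% and 13.2% of all genes).

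Of 9 genes of Fc receptors and their signalling partners, 0 were higher and 5 lower in E10.5 Endo than in Mac (21.1% and 12.6% of all genes compared), with a median of -4.31 (-4.28 with genes without a count set to a floor of 3 counts), and 6 were lower in E8.5 Endo (13.2% of all genes). The kinases *Lyn* (0.27) and *Syk* (-1.35), the phosphatase *Inpp5d* (-1.14) and *Fcgrt* (1.63) were within 4-fold at E10.5. *Fcgr1*, the high-affinity IgG receptor, was at 179 CPM in Mac with no count in either endothelium, *Fcgr3* at 473 against 6.29 CPM in E10.5 Endo (-6.02), the common signalling chain *Fcer1g* at 768 against 5.13 CPM (-6.97), and *Ptpn6*, a phosphatase that dampens such signalling, at 391.8 against 0.738 CPM (-7.82). *Fcgr3* was also at 22.6 CPM in E8.5 Endo, in 46.8% of cells. The neonatal Fc receptor *Fcgrt*, which recycles IgG and albumin, was 290 CPM in E10.5 Endo, 53.7 in E8.5 Endo and 93 in Mac, and was called between the endothelial stages (2.41).

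Of 12 genes of endocytosis and the lysosome, 0 were called in either direction between E10.5 Endo and Mac (median 0.19), where 21.1% of all genes were higher and 12.6% lower. The largest differences were *Snx17* (-1.75), *Lamp1* (-1.63), the clathrin adaptor *Dab2* (-1.58, 1103 and 3293 CPM) and *Gga2* (1.46). In E8.5 Endo 4 of the 12 were lower than in Mac (13.2% of all genes), and the cathepsin gene *Ctsb* was the 1 gene of the list called between the endothelial stages (167 and 758 CPM, 2.18). Of 12 engulfment genes 10 could be compared at E10.5, 4 of them higher in Endo (21.1% of all genes) and 3 lower (12.6%). Among them, the bridging protein *Mfge8* (344 against 19 CPM, 4.11), the kinase receptor *Axl* (12 against 0.00687 CPM, but in 1.64% of Endo cells) and the adaptor *Dock1* (2.59) were on the Endo side and the bridging ligand *Gas6* (15.6 against 172 CPM, -3.38) on the Mac side.

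Around the ligands of *Cd36* and *Lyve1*, the fatty acid carrier *Fabp5* followed *Cd36* between endothelial stages, at 59.7 CPM in E8.5 Endo and 929 in E10.5 Endo (3.94). *Fabp4* went from 0.0953 to 16.2 CPM (3.97), in 23% of E10.5 cells, and the kinase *Fyn*, which CD36 signals through, from 118.1 to 296 CPM (1.32). *Lpl*, the lipoprotein lipase, was a macrophage gene at 529 CPM against 16.2 in E10.5 Endo (-4.94). Of this list 2 of 4 genes compared were called higher in E10.5 Endo than in E8.5 Endo (8.67% of all genes). *Cd44*, another hyaluronan receptor, was at 23.4 CPM in E8.5 Endo and 313 in E10.5 Endo (3.68) and at 327 CPM in Mac (-0.06 against E10.5 Endo). The hyaluronidase *Hyal2* was higher in Endo than in Mac (log2 ratio 2.79), and *Hmmr* was at 244 and 93.7 CPM (1.37).

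**Figure D3:**
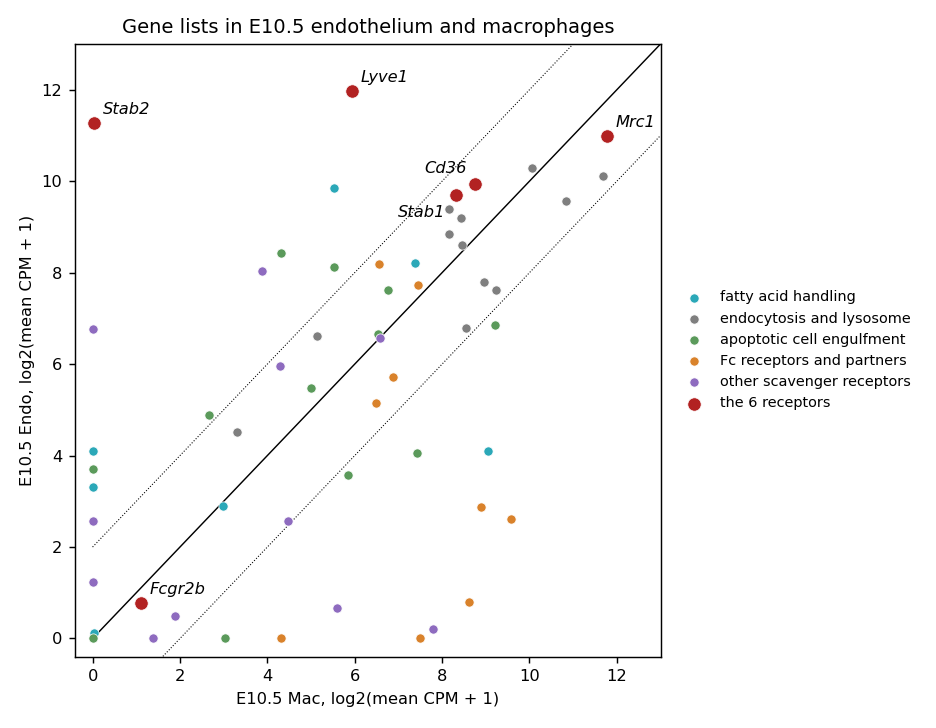
Mean levels of the receptors and of 5 related gene lists in E10.5 Mac (horizontal) and E10.5 Endo (vertical), both as log2(mean CPM + 1). The solid line marks equal levels and the dotted lines 4-fold differences. *Stab2* and *Lyve1* lie above the upper dotted line, and 5 genes of the list of Fc receptors and signalling partners lie below the lower one.

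A median of 5 of the 6 was detected per endothelial cell at both stages and 4 per macrophage. *Stab1*, *Stab2*, *Lyve1* and *Mrc1* were found together in 79 of 79 E8.5 Endo cells, 60 of 61 E10.5 Endo cells and 1 of 25 macrophages, whereas *Stab1*, *Mrc1* and *Cd36* were found together in 77.2%, 98.4% and 96%. Most of these genes were in nearly every cell, so the joint shares largely follow from the single ones. Macrophages were sequenced more deeply (median 3422342 counts, against 1874645 and 1943904 for Endo). With every cell thinned to 840000 counts, the share of macrophages with *Stab1*, *Mrc1* and *Cd36* was 72% and with the first set of 4 genes 0%, while E10.5 Endo kept 96.5% for both sets over the 57 cells deep enough.

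The levels of the receptors were also compared over cells. In E10.5 Endo (61 cells) the rank correlation was 0.56 between *Stab2* and *Mrc1*, 0.57 between *Lyve1* and *Mrc1*, 0.63 between *Mrc1* and *Cd36* and 0.20 between *Stab1* and *Cd36*. *Stab1* varied most with the summed endothelial markers (0.60), with which *Cd36* varied little (0.14). In E8.5 Endo (79 cells) the coefficients among the 5 genes ran from 0.15 to 0.46. In macrophages (25 cells) *Stab1* and *Mrc1* reached 0.59 and *Mrc1* and *Cd36* 0.45, and *Stab1* was at 0.34 with *Csf1r*. The cells of a population share a library preparation and a size-factor scale, and the correlation of the 5 genes with total counts lay between -0.44 and 0.24 in these 3 populations.

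The early progenitors, which were sorted as CDH5+ CD41+, held a graded form of the endothelial pattern. *Stab2* reached 10 counts or more in 27 of 73 E8.25 HPC and 19 of 89 E8.5 HPC. In those cells the median *Lyve1* level was 1027 and 785 CPM, against 15.1 and 49.6 CPM in the others, and median *Mrc1* was 383 and 109.2 CPM against 4.88 and 4.51. Their summed endothelial markers had medians of 1308 and 795 CPM, against 417 and 433, and median *Itga2b* (CD41, the progenitor and megakaryocyte integrin) was 24.6 and 52.8 CPM against 49.6 and 75.3. Over all cells, *Lyve1* correlated with the summed endothelial markers at 0.67 (E8.25, 73 cells) and 0.79 (E8.5, 89 cells) and with *Csf1r* at 0.31 and 0.21. The other receptors were lower with the same markers: *Stab2* at 0.54 and 0.34, *Stab1* at 0.59 and 0.49 and *Mrc1* at 0.60 and 0.53. Between *Stab2* and *Lyve1* the coefficients were 0.80 and 0.40. *Csf1r* was found in only 15.1% and 39.3% of these cells, so most were tied at 0, which limits its coefficients. *Cd36* did not take part: it was found in 4 of 73 and 0 of 89 of these progenitors. All of *Stab1*, *Stab2*, *Lyve1* and *Mrc1* were held by 30 of 73 and 18 of 89.

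**Figure D4:**
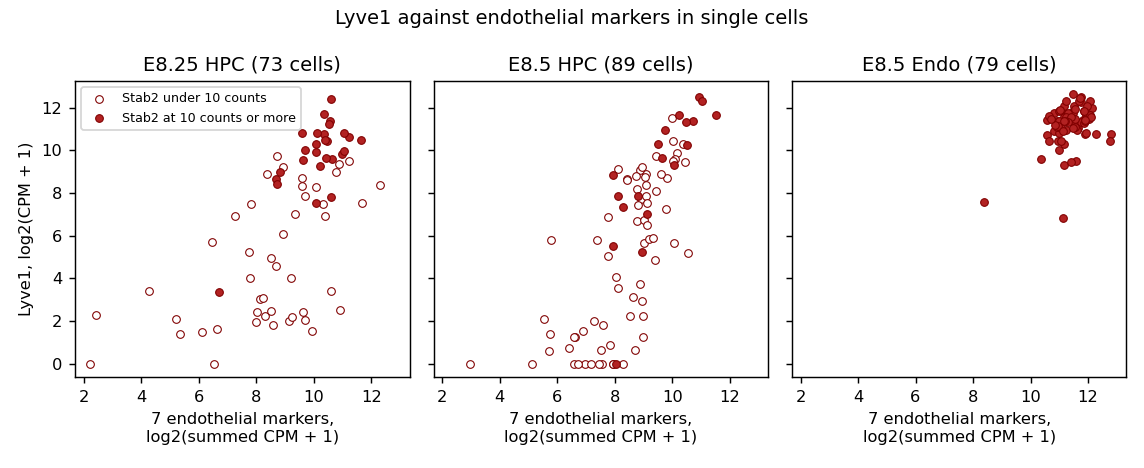
*Lyve1* (log2(CPM + 1)) against the summed level of 7 endothelial markers in single cells of E8.25 HPC, E8.5 HPC and E8.5 Endo. Filled points have 10 counts or more of *Stab2* (27 of 73, 19 of 89 and 79 of 79 cells). HPC with *Stab2* lie mostly towards the upper right, where the Endo cells are.

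At later stages the progenitor values rest on few cells. In E10.5 HPC, which were sorted as CDH5- CD45+, a single cell carried 97.1% of the *Stab2* sum and 79.7% of the *Lyve1* sum. It held 7 of 7 endothelial markers at a summed 2392 CPM and macrophage markers at 5.37 CPM, and without it the means were 0.833 and 9.81 CPM. *Mrc1* in the same population was highest in the cells with most macrophage markers: the 12 cells with 4 or 5 of the 5 markers *Csf1r*, *Cx3cr1*, *C1qb*, *C1qc* and *Ptprc* had a mean of 1733 CPM, the 30 cells with 2 or 3 had 10.9 CPM, and the 45 cells with 0 or 1 had 43 CPM. Detection of *Mrc1* differed little, in 7 of 12, 14 of 30 and 22 of 45 cells, and its rank correlation with *Csf1r* was 0.22 (87 cells). The means of *Stab1* (143.1, 2.7 and 9.34 CPM), *Cd36* (94.1, 0.54 and 3.67 CPM) and *Fcgr2b* (28.9, 4.19 and 5.46 CPM) were highest in the same 12 cells. Few cells carry the *Cd36* mean of the 12: its median was 0.201 CPM and it was found in 6 of them. In the whole population 1 cell at 560.5 CPM held 42.8% of the *Cd36* sum. *Fcgr2b* was found in 10 of the 12, against 9 of 30 and 20 of 45, at a median of 3.21 CPM in the 12. In E9.5 HPC all means were at or below 10.1 CPM, and 1 cell held 99.9% of the *Cd36* sum.

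Before blood and endothelium were sorted apart, the receptors were rare. Among Flk1-GFP+ cells of E7.25 and E7.75 no receptor was found in more than 8.57% of cells or at a mean above 4.58 CPM, *Fcgr2b* was found in 0 cells of either stage, which allows up to 2.04% and 2.14%, and *Lyve1* was found in 0 cells at E7.25 and 3 of 140 at E7.75. The cells of each of these stages were sequenced in 2 lanes, and the labels do not say whether the lanes were separate captures. *Stab1* was in 7 of 73 and 1 of 74 E7.25 cells by lane, and *Mrc1* in 2 of 73 and 6 of 74, so the lanes differed in opposite directions for these genes. At E7.75 *Stab1* was in 5 of 53 and 5 of 87 cells, and *Mrc1* in 5 of 53 and 7 of 87.

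Over the 13 population means, the closest genes to each receptor were taken from 12139 genes by Pearson correlation of log2(mean CPM + 1). *Stab1* was most like *Dnase1l3* (0.987), *Mrc1* (0.981) and *Abca1* (0.976), and *Mrc1* most like *Stab1*, *Plau* (0.971) and *Elk3* (0.961). *Stab2* was most like *Trim16* (0.990), *Gm43508* (0.989) and *Emcn* (0.989), all 3 with no count in macrophages, and *Lyve1* most like *Thbd* (0.961), *Gng11* (0.944) and *Grap* (0.938). *Cd36* was most like *Hfe* (0.985), *Gm21807* (0.960) and *Cfap45* (0.951). For *Fcgr2b* the highest coefficients were lower, 0.820 for *Mx1*, 0.814 for *Gpr174* and 0.787 for *Pyhin1*. Between the receptors themselves the coefficients ran from 0.24 (*Stab2* and *Fcgr2b*) to 0.98 (*Stab1* and *Mrc1*), and *Stab2* was closer to *Lyve1* (0.87) than to *Stab1* (0.79). With 13 points, of which several are near 0 for most of these genes, such coefficients are descriptive, and by rank correlation 0 or 1 of the 3 genes stayed for each receptor. For *Fcgr2b*, 0 of 3 stayed without E10.5 EryP.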

How the data were processed

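Single-cell RNA-seq of cells in 13 sorted populations was analysed from the deposited tables. The authors made the count values: they aligned the reads with Rsubread to the Ensembl mouse genome (GRCm38), counted them by gene with featureCounts and filtered cells and genes with scater. The signal values, named CPM by the authors, are these counts scaled by 1 value per cell, from its scran size factor, and their sums per cell ran from 699615 to 4176737. A level is the mean CPM of a population's cells, detection is 1 count or more, and shares have exact Clopper-Pearson 95% intervals, with 3 cells of the total as the limit where no cell held a gene. Ratios are log2 of mean CPM + 1, called at 4-fold or more with a mean of at least 10 CPM in either population. Each population is 1 sample, so no p-value is given. The 6 genes, the gene lists, the markers and the alternatives were chosen with earlier results of these data known. Named genes are the 6 receptors, up to 4 per list with the largest E10.5 Endo over Mac ratio and the 3 most alike per receptor. Genes named outside this rule (*Msr1*, *Fcgrt*, *Ctsb*, *Gata4*, *Wnt2*, *Clec4g*, *Prox1*, *Itga2b*, *Car4*, *Cd300lg*, *Lyn*, *Syk*, *Inpp5d*) were chosen after their values were seen. The left-out highest cell was an alternative added after seeing the data. Thinning drew 840000 counts per cell without replacement, and 46 shallower cells were left out. Gene positions are from a GENCODE annotation of GRCm38 and promoters from RefSeq, where 5 of the 6 genes had an entry. Scripts were tested on simulated data. The software was scipy 1.17.1, numpy 2.4.6, matplotlib 3.10.9 and pandas 2.3.3 under Python 3.11.15.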

Additional observations from a re-analysis of the deposited data

Results flagged for a closer look

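The authors' filter left out 13.7% of the 1073 captured cells, and the receptors were counted in those cells as well, in populations with 10 or more of them. All 19 E10.5 Endo cells that were left out held *Stab1*, *Stab2*, *Lyve1* and *Mrc1* (100% each), and 94.7% held *Cd36*, at a median depth of 415116 counts. Of the 16 macrophages left out, 93.8% held *Stab1*, 100% *Mrc1* and 75% *Cd36*, with *Stab2* in none. Relative to their own totals, their means were 21.1 CPM for *Stab1*, 845 for *Mrc1* and 10.7 for *Cd36*. The kept macrophages had 317, 3493 and 428 CPM on the size-factor scale. *Cd36* reached 10 counts in 6 of the 16. *Fcgr2b* was in 12.5% of the 16, at a mean of 92.1 CPM relative to their own totals. Of 22 E10.5 EryP cells left out, 86.4% held *Mrc1*, 18.2% *Stab1* and 18.2% *Cd36*, with no gene at 10 counts in any of them. These cells shared a lane with the macrophages, and the part of this was not tested. Of 10 E7.75 cells left out, 40% held *Stab1*, again with no cell at 10 counts. Receptors were listed for these populations where more than 3 of the left-out cells held them, apart from *Stab2* and *Fcgr2b* in macrophages, which are given for completeness.

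Some listed genes are outside the filtered table but have counts in the table of all 1073 captured cells. *Marco* was found in 5 cells, *Scara3* in 10, *Has1* in 5, *Has3* in 23 and *Rgcc* in 53. *Cd163* was found in 2 cells, and *Scara5* and *Ccl21a* in 0.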

How the results depend on the processing

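Of the log2 ratios of the receptors recomputed under other settings, 82 stayed within 1.5-fold of the value given, 23 moved further and 0 called ratios changed sign. Means of logs in place of the log of means gave, for E10.5 Endo over Mac, 1.97 (*Stab1*), 10.36 (*Stab2*), 9.71 (*Lyve1*) and 3.07 (*Cd36*), for E8.5 Endo over Mac 1.62 (*Stab1*), 9.67 (*Lyve1*), 0.16 (*Mrc1*) and -1.09 (*Cd36*), and between the endothelial stages 0.35 (*Stab1*), -0.65 (*Mrc1*) and 4.16 (*Cd36*). All captured cells gave 6.91 (*Lyve1*) and 2.19 (*Cd36*) for E10.5 Endo over Mac, and 0.70 (*Stab1*), 6.63 (*Lyve1*), -0.42 (*Mrc1*) and -1.20 (*Cd36*) for E8.5 Endo. That setting also replaced the size factors by total counts over all genes, so it changed cells and scaling together. The *Stab2* ratios were 14.32 and 12.58 with a pseudocount of 0.1, and 7.95 and 6.22 with 10, as its macrophage level is near 0. Without the highest cell of each population, *Lyve1* was at 8.84 and 8.34. No Endo cell held 2 macrophage markers at 10 counts or more, so leaving such cells out changed nothing.

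At 2-fold, 4 of 5 receptors were higher in E10.5 Endo than in Mac, as were 3616 of all 10294 genes compared. In E8.5 Endo 2 of 5 were lower than in Mac, as were 2403 of 9936 genes. Between the endothelial stages 3 of 5 were higher at E10.5, as were 2103 of 9938 genes. With total counts in place of size factors, 0 receptors were lower in E8.5 Endo than in Mac at 4-fold, where 1142 genes were. Over all genes, the counts higher and lower were, at 2-fold, 3616 and 2480 for E10.5 Endo against Mac, 3258 and 2403 for E8.5 Endo against Mac and 2103 and 1628 between the stages. With a minimum of 100 CPM they were 610 and 566, 430 and 575, and 185 and 49. Without a minimum, 719 genes were lower in E10.5 than in E8.5 Endo. The causes were not tested beyond the settings' own construction.

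Of 78 shares of cells with a receptor, 33 left their exact 95% interval at 10 counts or more, and 7 of 84 shares and sets of receptors did so after thinning. By lane alone 3 of 24 early shares did. No paired analysis was possible because no result comes from a test and each population is 1 sample. Depth limits the absences: in 25 macrophages a share of up to 12% cannot be told from 0.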
